A study of Homo sapiens with 9 samples.

Results

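Interferon-stimulated genes are transcribed when a cell senses interferon, and this set of 48 listed genes was examined in HT-29, a human colon adenocarcinoma cell line, after exposure to 5-Aza (5-aza-deoxycytidine). The members were taken by gene symbol, or by an older alias of it. Their list was made with earlier results of these data known. Of the 48 genes, 47 had a probe set in the table used here and all 47 passed the filter on low signals, among 11756 genes tested and 19775 genes with a probe set. STAT2 matched none and was not analysed here. The cultures received 0 µM 5-Aza, which was the vehicle dimethyl sulfoxide alone, 5 µM 5-Aza or 10 µM 5-Aza for 5 days. There were 3 cultures for each concentration, labelled as biological replicates, and the total RNA of each was hybridized to its own Affymetrix U133 Plus array. All groups are the same cell line, so the data describe 1 tumour line without the other cells of a colon.

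Interferons are secreted proteins that bind receptors on the cell surface, where the kinases JAK1 and TYK2 start a signal to the nucleus. A complex that contains STAT2 and IRF9 binds a promoter sequence called the interferon-stimulated response element (ISRE), and a separate sequence, the gamma-activated site (GAS), serves the response to interferon gamma. The products block viruses at entry, RNA copying, translation and release, and many are also made at a low level in tumour cells with no virus. 5-Aza is incorporated into DNA in place of deoxycytidine and traps DNA methyltransferases, so that newly copied strands lose methylation.

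The deposited signals are on the log2 scale, and a difference of 1 is a 2-fold change. Of 10 epithelial markers, 8 lay above the floor on all 9 arrays, the floor being the median of all probe sets of an array, while CDX1 and CDX2 lay below it on every array. Array medians ranged from 5.07 to 5.52. The actin control probe sets at the 3' end exceeded those at the 5' end, a gap that grows as the labelled RNA gets shorter, by 1.91 to 2.29 at 0 µM, 2.49 to 2.69 at 5 µM and 2.84 to 3.16 at 10 µM, so it moved with the concentration. Its part in the results below was not tested apart from the fits that carry it as a covariate. The p-values below come from limma, adjusted by Benjamini-Hochberg over all 11756 genes, and a gene was called when the adjusted p was at most 0.05 and the change more than 2-fold.

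The interferon-stimulated genes were higher at 5 µM than at 0 µM across nearly the whole set. At 5 µM, 31 of 47 were called higher and 0 lower, and 8.6% of all tested genes were called higher and 1.32% lower. For the set as a whole the median was 1.41 on the log2 scale, against 0.04 over all tested genes, and 46 of 47 changes were above 0. All 3 arrays at 5 µM lay above all 3 at 0 µM for 45 of 47 members, a pattern that 31.0% of all genes showed. The exceptions were PLSCR1, whose groups overlapped, and GBP3, which was lower on all 3 arrays at 5 µM. A further 11 members passed the adjusted p but not the fold, with changes between -0.45 and 0.99. No member was called lower by limma or by the methods' t-test, and at an unadjusted p under 0.05 limma had 1 member lower, GBP3. In bulk RNA, a change in the level per cell and a change in the share of cells that express a gene cannot be told apart.

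**Figure D1:**
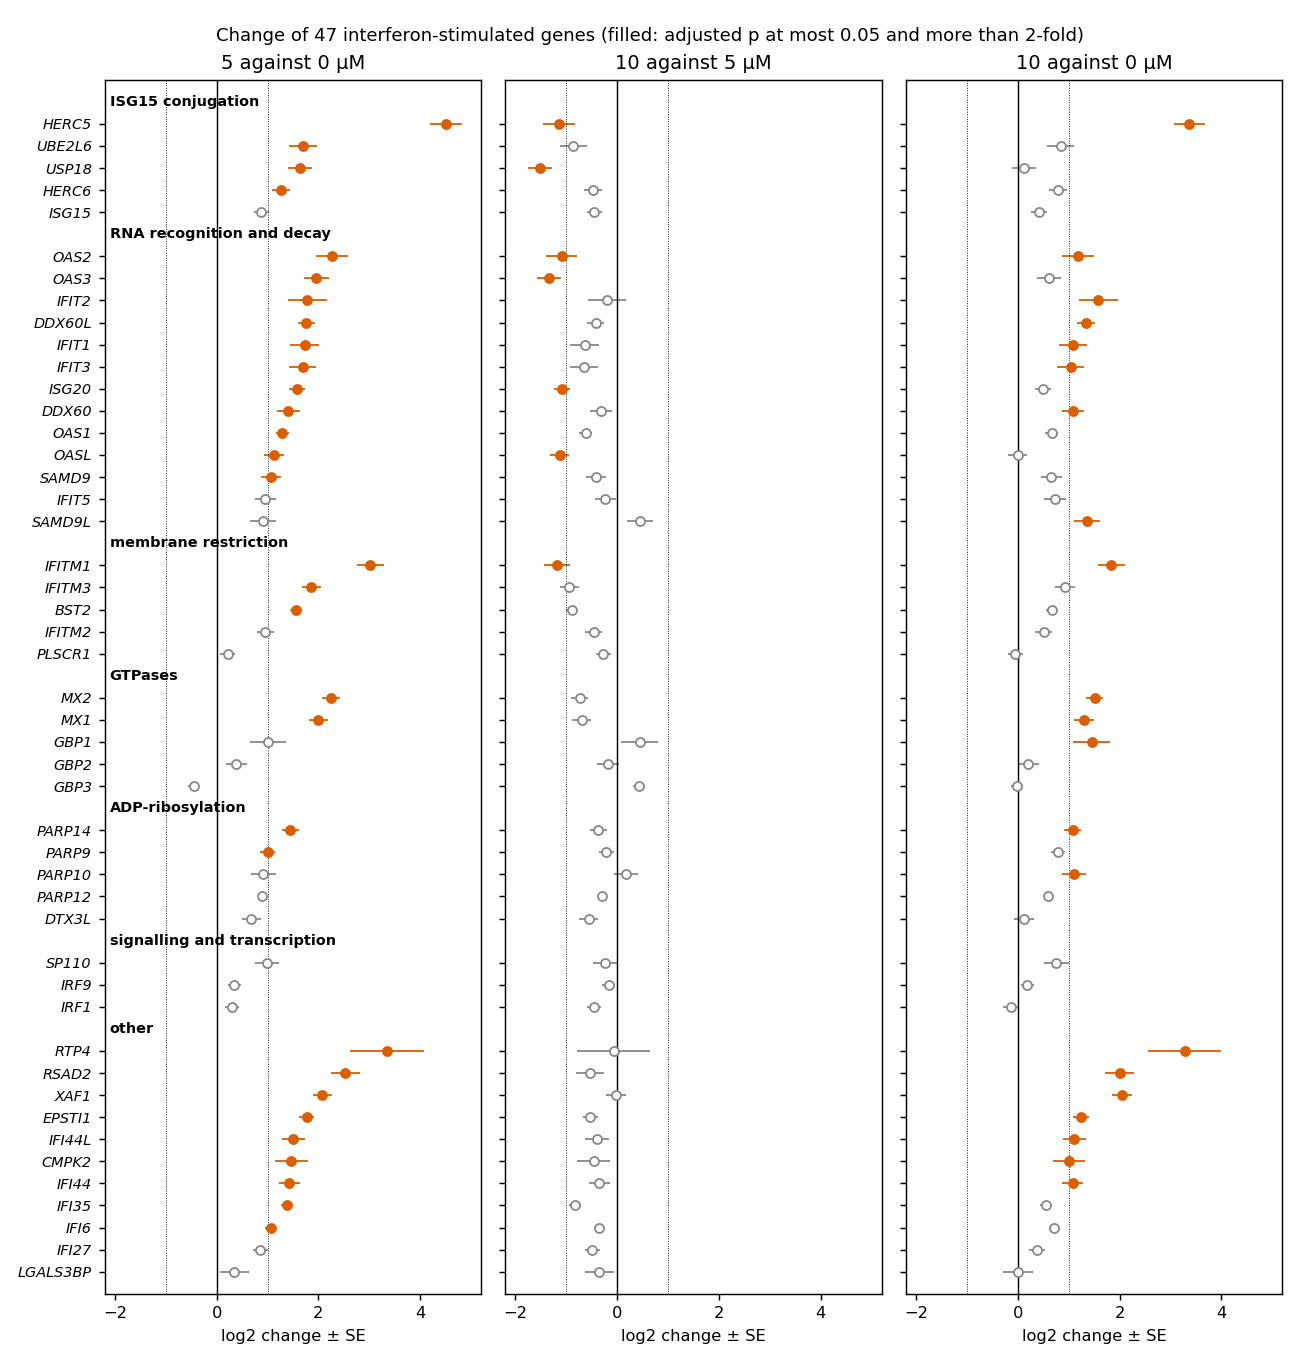
The log2 change ± SE (limma) of each of the 47 genes, grouped by role, in the comparisons of 5 µM with 0 µM (left), 10 µM with 5 µM (middle) and 10 µM with 0 µM (right). Filled points passed the adjusted p and the 2-fold limit (dotted lines), which were 31, 7 and 21 genes, and in the middle panel most points lie left of 0.

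**Figure D2:**
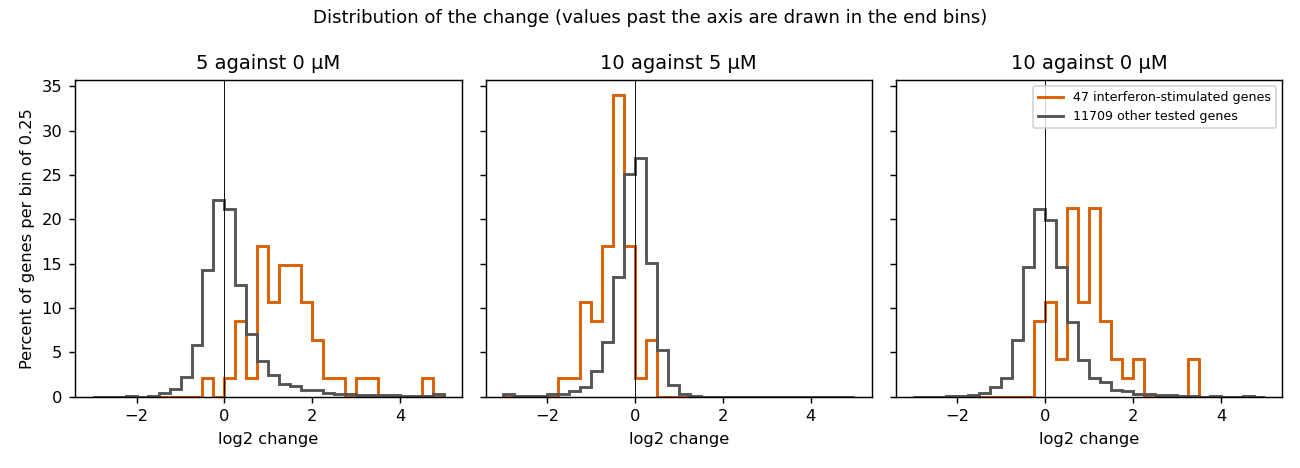
Percent of genes per bin of log2 change for the 47 interferon-stimulated genes and the other 11709 tested genes, in the same comparisons. The interferon-stimulated genes have medians of 1.41, -0.45 and 0.79, and all tested genes of 0.04, -0.01 and 0.05.

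Promoter sequence from RefSeq (GRCh38.p14), from 250 bases before to 50 after a gene's start, was found for 40 of the 48 genes and not for GBP2, OASL, MX2, PARP10, IFITM2, IFIT2, USP18 and OAS2. The core of the ISRE was searched as GAAANNGAAA on both strands (TTTCNNTTTC on the other), and overlapping matches were kept. It was found for 29 of the 40 (72.5%), against 4.38% of all 27305 genes with a window. The GAS, searched as TTCNNNGAA, was found for 14 of the 40 (35.0%), against 9.38% of all genes. Both are descriptions of the letters in these windows. The windows are shown for the members with the largest and the smallest fitted change at 5 µM against 0 µM among those that had one, from 150 bases before to 20 after the start, with the ISRE core in capitals. The HERC5 window at chr4:88456969-88457138 (plus strand) holds the core 3 times, all on the opposite strand, and the first pair overlap in the run from 125 to 110 bases before the start. The RTP4 window at chr3:187368235-187368404 (plus strand) and the IFITM1 window at chr11:313890-314059 (plus strand) hold it 2 times each, starting 42 and 18 bases before the start of RTP4 and 40 and 6 bases before that of IFITM1.
HERC5: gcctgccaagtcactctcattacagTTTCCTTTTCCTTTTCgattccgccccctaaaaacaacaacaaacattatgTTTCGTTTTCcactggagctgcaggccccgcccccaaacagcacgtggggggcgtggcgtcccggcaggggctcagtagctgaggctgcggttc
RTP4: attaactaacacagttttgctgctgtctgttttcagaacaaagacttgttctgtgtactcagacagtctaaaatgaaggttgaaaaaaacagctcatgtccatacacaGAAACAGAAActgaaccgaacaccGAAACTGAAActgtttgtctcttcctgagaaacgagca
IFITM1: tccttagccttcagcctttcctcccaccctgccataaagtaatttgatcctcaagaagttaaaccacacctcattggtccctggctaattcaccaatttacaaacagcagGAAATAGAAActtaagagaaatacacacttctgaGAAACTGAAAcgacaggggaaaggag

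The members with the smallest changes also carried such letters. PLSCR1 at chr3:146544576-146544745 (minus strand) has the core 91 bases before its start, GBP3 at chr1:89022847-89023016 (minus strand) has it within the first 12 bases after the start, and IRF1 at chr5:132490754-132490923 (minus strand) has no ISRE core but a GAS that begins 124 bases before the start, which is what the capitals mark in its line.
PLSCR1: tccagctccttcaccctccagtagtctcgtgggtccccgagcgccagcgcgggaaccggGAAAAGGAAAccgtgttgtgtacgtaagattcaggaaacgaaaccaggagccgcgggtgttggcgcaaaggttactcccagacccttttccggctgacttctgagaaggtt
GBP3: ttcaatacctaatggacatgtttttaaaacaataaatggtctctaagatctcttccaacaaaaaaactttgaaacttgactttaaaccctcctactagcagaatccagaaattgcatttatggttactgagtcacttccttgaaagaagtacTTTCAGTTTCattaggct
IRF1: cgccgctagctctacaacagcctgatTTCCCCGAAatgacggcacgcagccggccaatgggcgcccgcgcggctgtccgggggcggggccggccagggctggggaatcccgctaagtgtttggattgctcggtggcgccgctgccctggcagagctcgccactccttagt
Of the 29 tested members with the core, 20 were called higher at 5 µM and the median change was 1.45. Of the 10 tested members with a window and no core, 6 were called and the median was 1.28. XAF1, CMPK2, UBE2L6 and HERC6 were among these 6. The search fixed the spacing of the GAAA pair, so closer pairs, as in windows of XAF1, CMPK2 and OAS1, were not counted. The windows held a median of 8 CpG for the members and 14 over all windows.

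The genes grouped under ISG15 conjugation include those that attach and remove ISG15, a ubiquitin-like protein, and 4 of 5 were called higher at 5 µM. HERC5, the human ligase that joins ISG15 to newly made proteins, had log2 signals of 4.54, 4.03 and 3.26 at 0 µM, 8.52, 8.54 and 8.28 at 5 µM and 7.06, 7.78 and 7.10 at 10 µM. All 3 vehicle arrays lay below the floor and all 6 treated arrays above it. HERC5 was therefore at least 9.87-fold higher at 5 µM than at 0 µM (adjusted p = 2.57e-05) and at least 4.49-fold higher at 10 µM than at 0 µM (adjusted p = 0.000261), each vehicle value having been raised to the median of its array. These p-values, like those of RTP4 below, belong to the limma fit on signals that were not raised. USP18, which removes ISG15 from proteins and dampens the interferon receptor, had 8.26, 7.96 and 7.54 at 0 µM, 9.72, 9.43 and 9.54 at 5 µM and 8.48, 7.86 and 7.78 at 10 µM. It was high only on the 5 µM arrays, and the 10 µM and 0 µM arrays overlapped. The change was 1.64 ± 0.23 (SE) at 5 µM against 0 µM (adjusted p = 0.000935) and 0.12 ± 0.23 at 10 µM against 0 µM (adjusted p = 0.705). UBE2L6, the enzyme that hands ISG15 to the ligase, was 3.25-fold higher at 5 µM than at 0 µM, and HERC6 2.41-fold. ISG15 itself had 13.12, 13.15 and 12.69 at 0 µM, 13.77, 13.90 and 13.92 at 5 µM and 13.26, 13.59 and 13.38 at 10 µM. Its groups did not overlap, and its change of 0.88 ± 0.15 at 5 µM passed the adjusted p (0.00242) but not the fold.

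Of the 13 genes of RNA recognition and decay, 11 were called higher at 5 µM than at 0 µM. For all 13 the 5 µM arrays lay above the vehicle arrays, as they did for 31.0% of all genes. The OAS enzymes sense double-stranded RNA and make the 2',5'-oligoadenylate that switches on RNase L. OAS2 had log2 signals of 8.32, 7.82 and 7.03 at 0 µM, 9.88, 10.05 and 10.06 at 5 µM and 8.96, 9.26 and 8.48 at 10 µM. OAS3 had 10.07, 9.98 and 9.49 at 0 µM, 11.84, 11.76 and 11.81 at 5 µM and 10.76, 10.71 and 9.90 at 10 µM. For OAS2 the 3 concentrations did not overlap and 10 µM lay between the others, whereas for OAS3 the 10 µM arrays overlapped with those at 0 µM. Their changes at 5 µM against 0 µM were 2.27 ± 0.31 for OAS2 (adjusted p = 0.000878) and 1.96 ± 0.24 for OAS3 (adjusted p = 0.000503). OAS1 was 2.45-fold higher at 5 µM. OASL, a relative of the OAS enzymes without their catalytic activity, had 8.68, 8.49 and 7.90 at 0 µM, 9.32, 9.65 and 9.48 at 5 µM and 8.29, 8.45 and 8.33 at 10 µM. Its 5 µM arrays were above all others, and its change was 1.13 ± 0.19 at 5 µM against 0 µM (adjusted p = 0.00253) and 0.00 ± 0.19 at 10 µM against 0 µM (adjusted p = 0.996). ISG20, an exonuclease that degrades single-stranded RNA, had 8.66, 8.85 and 8.44 at 0 µM, 10.30, 10.23 and 10.14 at 5 µM and 8.97, 9.49 and 8.98 at 10 µM. No 2 of its groups overlapped, and it was 2.98-fold higher at 5 µM than at 0 µM (adjusted p = 0.000216).

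The IFIT proteins bind viral RNA with foreign 5' ends, and IFIT1, IFIT2 and IFIT3 were 3.31-fold, 3.43-fold and 3.23-fold higher at 5 µM than at 0 µM. IFIT5 reached 1.94-fold (adjusted p = 0.00904) and was not called. The helicases DDX60 and DDX60L were 2.66-fold and 3.38-fold higher. SAMD9 and SAMD9L are neighbouring antiviral factors that act on translation. SAMD9 was called at 5 µM (2.10-fold), and SAMD9L had log2 signals of 6.57, 6.36 and 5.44 at 0 µM, 7.16, 7.14 and 6.81 at 5 µM and 7.48, 7.59 and 7.39 at 10 µM. SAMD9L was thus highest on the 10 µM arrays, with no overlap between any groups. Its change was 0.91 ± 0.26 at 5 µM against 0 µM (adjusted p = 0.0267, under 2-fold) and 1.36 ± 0.26 at 10 µM against 0 µM (adjusted p = 0.0058, called), and the step of 0.45 ± 0.26 at 10 µM against 5 µM did not pass (adjusted p = 0.271).

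Proteins that act at membranes included the IFITM family, which hinders the fusion of virus and cell membranes, and BST2 (tetherin), which holds budding particles on the cell. In this group 3 of 5 genes were called higher at 5 µM. IFITM1 had log2 signals of 9.41, 9.44 and 8.59 at 0 µM, 12.13, 12.33 and 12.03 at 5 µM and 10.74, 11.44 and 10.77 at 10 µM. The 3 groups were separate, in the order 0, 10 and 5 µM. IFITM1 was 8.09-fold higher at 5 µM than at 0 µM (3.02 ± 0.26 on the log2 scale, adjusted p = 8.33e-05) and 3.57-fold higher at 10 µM than at 0 µM (adjusted p = 0.00156). IFITM3 was 3.64-fold and BST2 2.95-fold higher at 5 µM, and IFITM2 1.95-fold, which was not called. The IFITM genes are similar in sequence and their probe sets may share targets, so how the signal divides between them is uncertain. A probe set annotated to both IFITM1 and IFITM2 was not used. PLSCR1, a phospholipid scramblase, had 12.91, 12.89 and 12.55 at 0 µM, 12.88, 13.10 and 13.03 at 5 µM and 12.50, 12.94 and 12.74 at 10 µM. All of its groups overlapped, and its change at 5 µM was 0.22 ± 0.15 (adjusted p = 0.277). A much dimmer PLSCR1 probe set changed by 1.58 in the same comparison.

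Among the GTPases, the MX proteins, which resemble dynamin and trap viral ribonucleoproteins or capsids, were called and the guanylate binding proteins were not. MX2 had log2 signals of 8.64, 8.31 and 7.94 at 0 µM, 10.60, 10.58 and 10.45 at 5 µM and 9.69, 9.80 and 9.92 at 10 µM. No groups overlapped, and MX2 was 4.75-fold higher at 5 µM (2.25 ± 0.17, adjusted p = 3.73e-05) and 2.85-fold higher at 10 µM (adjusted p = 0.000534) than at 0 µM. MX1 was 4.0-fold higher at 5 µM. GBP1 changed by 1.01 ± 0.36 at 5 µM against 0 µM, which did not pass (adjusted p = 0.0591), and by 1.45 ± 0.36 at 10 µM against 0 µM, which was called (adjusted p = 0.0159). GBP2 changed by 0.39 ± 0.21 at 5 µM (adjusted p = 0.194). GBP3 had 10.63, 10.70 and 10.62 at 0 µM, 10.23, 10.25 and 10.12 at 5 µM and 10.42, 10.71 and 10.75 at 10 µM. It was lower on the 5 µM arrays than on all others, with a change of -0.45 ± 0.11 at 5 µM against 0 µM (adjusted p = 0.0142) that was under 2-fold. GBP3 was the only one of the 47 with a change below 0 in this comparison.

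**Figure D3:**
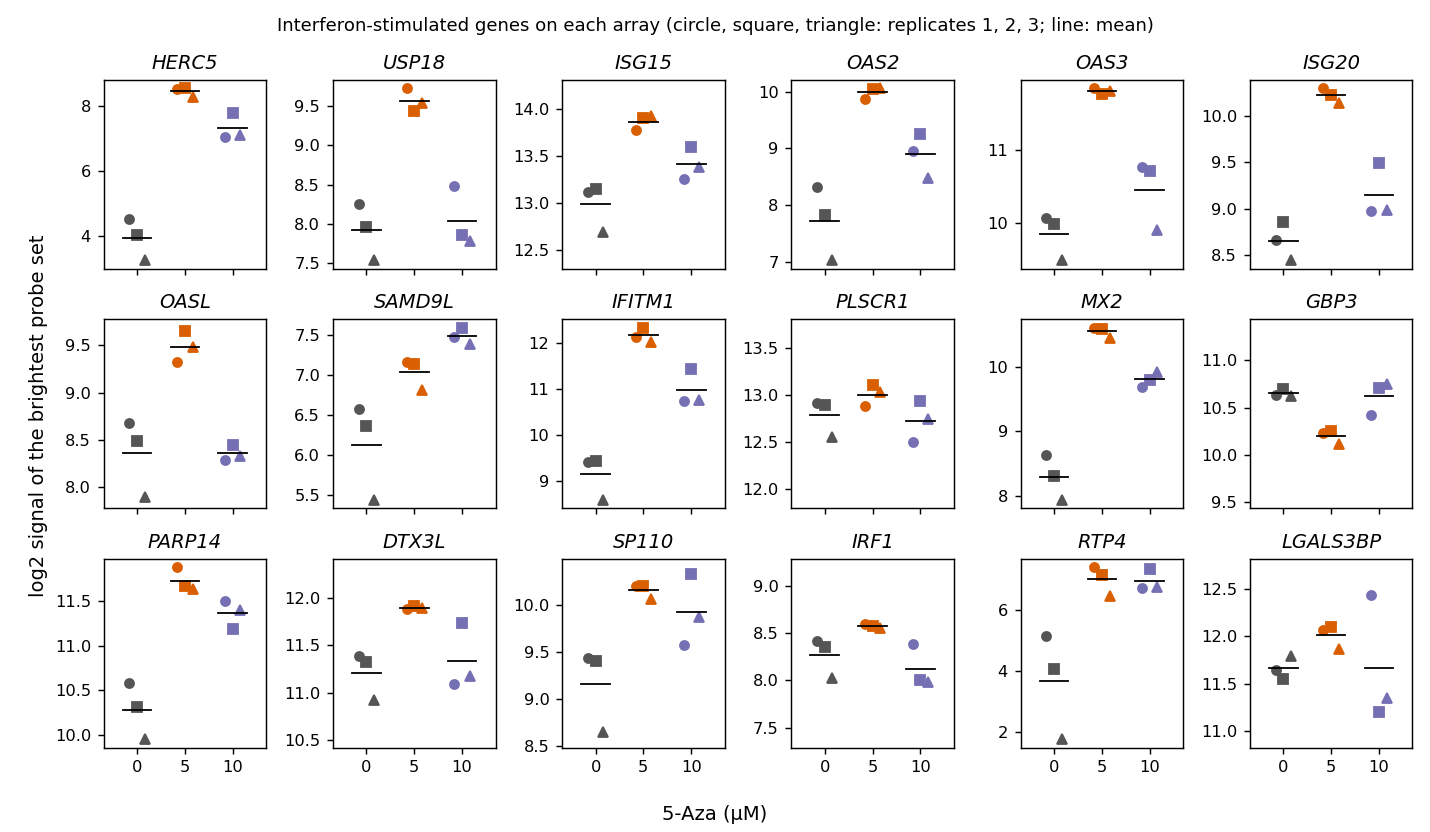
Log2 signal of the 18 genes given array by array, at 0, 5 and 10 µM 5-Aza (x axis), with a symbol per replicate and a line at the mean. Each panel has its own y axis of at least 2 log2 units, and levels are not to be compared between panels. The 10 µM values of USP18, OASL and GBP3 overlap in range with those at 0 µM, while SAMD9L is highest at 10 µM.

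The ADP-ribosylation genes showed smaller changes, from 0.68 to 1.45, and 2 of 5 were called higher at 5 µM. PARP14, a mono-ADP-ribosyltransferase, had log2 signals of 10.58, 10.31 and 9.95 at 0 µM, 11.88, 11.67 and 11.64 at 5 µM and 11.50, 11.19 and 11.40 at 10 µM, with no overlap between groups. It was 2.74-fold higher at 5 µM (adjusted p = 0.000363) and 2.12-fold higher at 10 µM (adjusted p = 0.0022) than at 0 µM. PARP9 was called at the fold limit (2.00-fold, adjusted p = 0.00088). PARP12 had the smallest error of the group, with a change of 0.90 ± 0.08 (adjusted p = 0.000117), and stayed under the fold. DTX3L, the ubiquitin ligase that binds PARP9, had 11.39, 11.32 and 10.92 at 0 µM, 11.88, 11.91 and 11.89 at 5 µM and 11.09, 11.74 and 11.17 at 10 µM. The 5 µM arrays of DTX3L were above the rest, the 10 µM arrays overlapped with the vehicle arrays, and the change at 5 µM was 0.68 ± 0.19 (adjusted p = 0.0228). PARP10 changed by 0.92 ± 0.24 at 5 µM (not called) and by 1.10 ± 0.24 at 10 µM against 0 µM (called, adjusted p = 0.00937).

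None of the 3 measured signalling and transcription genes was called by limma or by the methods' t-test in any comparison. At 5 µM against 0 µM limma had 2 of them at an unadjusted p under 0.05, and 5245 of all 11756 genes. SP110, a nuclear body protein, had log2 signals of 9.43, 9.40 and 8.65 at 0 µM, 10.20, 10.20 and 10.06 at 5 µM and 9.57, 10.32 and 9.87 at 10 µM. Both treated groups lay above the vehicle arrays, and the change at 5 µM was 0.99 ± 0.24 (adjusted p = 0.0134). IRF9, the DNA binding part of the interferon complex, changed by 0.35 ± 0.12 at 5 µM (adjusted p = 0.0495, under 2-fold). IRF1, a transcription factor induced early by interferon gamma, had 8.42, 8.35 and 8.02 at 0 µM, 8.59, 8.57 and 8.55 at 5 µM and 8.38, 8.0 and 7.98 at 10 µM. Its 5 µM arrays were narrowly above the others, and its change of 0.30 ± 0.14 did not pass (adjusted p = 0.139). A second IRF1 probe set changed by -0.10.

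The remaining 11 genes included 9 that were called higher at 5 µM. RTP4, a chaperone of receptors on their way to the cell surface, had log2 signals of 5.15, 4.07 and 1.77 at 0 µM, 7.40, 7.16 and 6.47 at 5 µM and 6.72, 7.34 and 6.77 at 10 µM. The vehicle arrays were all below the floor and spread widely, and the treated groups overlapped with each other and not with the vehicle arrays. RTP4 was at least 3.64-fold higher at 5 µM (adjusted p = 0.00789) and at least 3.47-fold higher at 10 µM (adjusted p = 0.00989) than at 0 µM. RSAD2 (viperin), whose product ends the growth of viral RNA chains, was 5.77-fold higher at 5 µM (2.53 ± 0.28) and 4.0-fold higher at 10 µM (2.00 ± 0.28) than at 0 µM. CMPK2, the nucleotide kinase gene beside RSAD2, was 2.77-fold and 2.01-fold higher in the same comparisons. XAF1, which promotes apoptosis, was 4.21-fold higher at 5 µM and 4.15-fold higher at 10 µM than at 0 µM, and its groups at 10 µM and 5 µM overlapped. Dimmer XAF1 probe sets changed by 1.27 and 0.56 on the log2 scale at 10 µM against 0 µM, less than the brightest (2.05). EPSTI1, IFI44L, IFI44, IFI35 and IFI6 were 3.42-fold, 2.85-fold, 2.69-fold, 2.60-fold and 2.09-fold higher at 5 µM. IFI27, a mitochondrial protein, was 1.82-fold higher (adjusted p = 0.00257) and not called. LGALS3BP, a secreted glycoprotein, had 11.64, 11.55 and 11.79 at 0 µM, 12.07, 12.10 and 11.87 at 5 µM and 12.44, 11.20 and 11.35 at 10 µM. One 10 µM array was its highest and the others its lowest, and its change at 5 µM was 0.35 ± 0.29 (adjusted p = 0.376).

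Between the treated concentrations the set was lower at 10 µM than at 5 µM. Of 47 members, 7 were called lower and 0 higher, and 2.08% of all tested genes were called lower and 0.264% higher. At an unadjusted p under 0.05 limma had 26 members lower and 1 higher, where 3817 of all 11756 genes passed in either direction. The methods' t-test called 1 member lower and 0 higher. The median change was -0.45, against -0.01 over all genes, and 43 of 47 changes were below 0. The 10 µM arrays lay wholly below the 5 µM arrays for 30 members, as they did for 18.6% of all genes. The called genes were USP18 (2.88-fold lower, adjusted p = 0.00568), OAS3 (2.54-fold lower, adjusted p = 0.00978), IFITM1 (2.27-fold lower, adjusted p = 0.0201), HERC5 (2.20-fold lower, adjusted p = 0.041), OASL (2.18-fold lower, adjusted p = 0.00822), OAS2 (2.13-fold lower, adjusted p = 0.045) and ISG20 (2.11-fold lower, adjusted p = 0.00614). BST2 fell by 0.89 on the log2 scale and IFI35 by 0.83, with adjusted p of 0.00434 and 0.00546, and did not reach 2-fold. XAF1 and RTP4 changed by -0.02 and -0.07, and SAMD9L, GBP1, GBP3 and PARP10 had changes above 0. The dimmer XAF1 probe sets changed by -0.63 and -0.73. The calls at 10 µM against 5 µM were close to the limits. Their number was 3 without 10 µM replicate 3, 4 without 10 µM replicate 1 or without any 1 of the 5 µM arrays, and 9 at most. HERC5 and OAS2 were also lost without vehicle replicate 2, while USP18, OAS3 and OASL were called without each array in turn. HERC5, OAS2 and OAS3 were lost when a gene's probe sets were averaged. HERC5 had only 1 probe set, so the averaging left its own signals unchanged. That alternative also tested fewer genes, and why the HERC5 call was lost was not tested. A much dimmer OAS3 probe set changed by -0.06 at 10 µM against 5 µM, and its 10 µM arrays lay above its vehicle arrays. The dimmer OAS2 probe sets changed by -0.44 and -0.41 at 10 µM against 5 µM. With this actin gap as a covariate limma called 0 of the 47, with 6 lower and 2 higher at an unadjusted p under 0.05 and a median change of -0.19. In that fit 1488 of all 11756 genes passed the unadjusted p in either direction.

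At 10 µM against 0 µM, 21 of 47 members were called higher and 0 lower, and 6.08% of all genes were called higher and 1.5% lower. At an unadjusted p under 0.05 limma had 38 members higher and 0 lower, where 5311 of all 11756 genes passed in either direction. The methods' t-test called 6 members higher and 0 lower. The median change was 0.79, against 0.05 over all genes. All 10 µM arrays lay above all vehicle arrays for 37 members, and 25.5% of all genes showed this. This comparison shares its vehicle arrays with that of 5 µM. HERC5, RTP4, XAF1, RSAD2, IFITM1, IFIT2 and MX2 had the largest fitted changes, from 1.51 for MX2 to 3.37 for HERC5. ISG15, USP18, OASL, LGALS3BP, DTX3L and IRF9 were among those not called, with changes of 0.42, 0.12, 0.00, 0.00, 0.12 and 0.19. Without vehicle replicate 3 the number called was 12, and CMPK2, DDX60, IFI44, IFI44L, IFIT1, IFIT3, OAS2, PARP10 and PARP14 were lost. CMPK2, DDX60, IFI44L, IFIT1 and IFIT3 were lost without 10 µM replicate 2, IFI44 and OAS2 without 10 µM replicate 1, CMPK2 and IFIT1 without 10 µM replicate 3, and CMPK2 alone without vehicle replicate 2 or any 1 of the 5 µM arrays. The actin covariate left 0 calls among all 11756 genes with limma, while the members' median change was 1.83 and its median SE was 0.52 in place of 0.19, with 33 members higher and 0 lower at an unadjusted p under 0.05. In that fit 997 of all genes passed the unadjusted p in either direction.

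The set did not have the same spread in each group. Vehicle replicate 3 was the lowest vehicle array for 44 of 47 members, and for 37.6% of all tested genes. The members' median distance from their own vehicle mean was 0.25 on replicate 1, 0.11 on replicate 2 and -0.34 on replicate 3. At 10 µM, replicate 2 was the highest for 31 members, with a median distance of 0.18, and for 38.8% of all tested genes. The median SD of the members within a group was 0.32 at 0 µM, 0.10 at 5 µM and 0.23 at 10 µM, against 0.14, 0.12 and 0.21 over all genes. Without vehicle replicate 3, 27 of 47 members were called at 5 µM against 0 µM, and IFI6, OASL, PARP9 and SAMD9 were lost. PARP9 was also lost without 5 µM replicate 1 or 2.

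**Figure D4:**
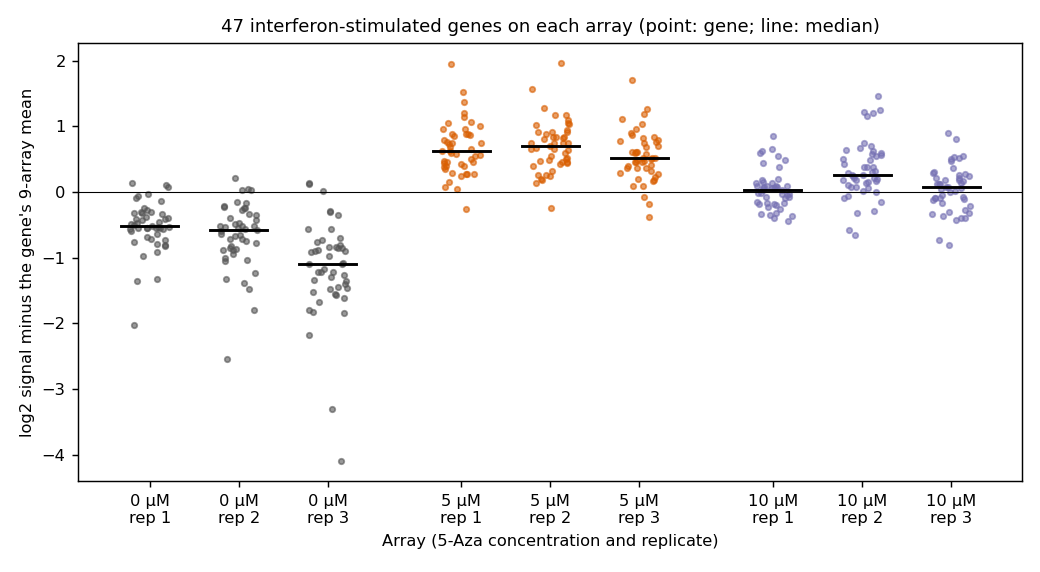
Log2 signal of each of the 47 genes minus its mean over 9 arrays (y axis), by array, at 0, 5 and 10 µM, with a line at the median. The medians are -0.52, -0.58 and -1.10 on the vehicle arrays, 0.62, 0.70 and 0.52 at 5 µM and 0.04, 0.27 and 0.07 at 10 µM.

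Scaling moved the whole distribution of changes. With equal array medians the median of all genes was -0.22 at 5 µM and -0.23 at 10 µM against 0 µM, and the members' medians were 1.14 and 0.52, which are 1.37 and 0.75 above those of all genes, as with the deposited scaling. The members called higher then numbered 27 and 11. Over all genes the calls at 5 µM against 0 µM were 1011 higher and 155 lower with the deposited scaling, and 721 higher and 443 lower with equal medians. At 10 µM against 0 µM they were 715 higher and 176 lower, against 458 and 475 with equal medians and 515 and 233 with quantile normalization. All members called in either comparison kept their direction under each scaling.

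Several members are neighbours in the genome. In RefSeq (GRCh38.p14), 27 of the 48 genes fell into 12 runs with no other protein-coding gene between them. In the OAS run on chromosome 12 the changes at 5 µM against 0 µM were 1.29 for OAS1, 1.96 for OAS3 and 2.27 for OAS2, all called. HERC6 and HERC5 on chromosome 4 changed by 1.27 and 4.51, where the value of HERC5 was fitted on vehicle signals below the floor. MX2 and MX1 on chromosome 21 changed by 2.25 and 2.00. The GBP run on chromosome 1 differed in sign, with -0.45 for GBP3, 1.01 for GBP1 and 0.39 for GBP2, and PARP9 and DTX3L on chromosome 3 changed by 1.00 and 0.68.

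Genes of the interferon pathway outside the set mostly had no call. Of 43 listed, 39 had a probe set and 20 were tested. At 5 µM against 0 µM, 2 of these were called higher and 1 lower. Limma and the methods' t-test called 0 at 10 µM against 5 µM or 0 µM. There limma had 10 and 7 of the 20 at an unadjusted p under 0.05, against 3817 and 5311 of all 11756 genes. Of the 18 ligands with a probe set, only IFNE was tested. IFNE, the interferon epsilon of epithelia, had log2 signals of 8.74, 8.33 and 8.93 at 0 µM, 7.94, 7.45 and 7.45 at 5 µM and 8.96, 8.19 and 8.68 at 10 µM. It was lower on all 5 µM arrays and was called lower there (-1.06 ± 0.24, adjusted p = 0.00943). The other 17 ligands did not pass the filter, and 14 of the 18 lay below the floor on all 9 arrays, IFNB1 and IFNG among them. IFNL1, an interferon lambda, was above the floor on 0 arrays at 0 µM, 2 at 5 µM and 1 at 10 µM. IFNL2 was above it on 1 array at 10 µM and 0 others, and IFNA17 on 2 vehicle arrays and 0 treated arrays. IFNLR1, the receptor chain for interferon lambda, was called higher at 5 µM than at 0 µM (2.30-fold, adjusted p = 0.00202), with 7.66, 7.26 and 7.40 at 5 µM against 6.36, 5.80 and 6.55 at 0 µM. IRF7, the factor that drives interferon alpha genes, had 11.21, 11.21 and 11.17 at 5 µM against 10.24, 10.17 and 10.17 at 0 µM and was called at the fold limit (1.00 ± 0.13, adjusted p = 0.000638). Neither of these overlapped between the 2 groups. In the study's own quantitative PCR of the same RNA, IRF7 was lower at 5 µM than at 0 µM, without passing its t-test. The study's sequencing had IRF7 higher at 5 µM, by less than its array value. The other receptors and the kinases JAK1, JAK2 and TYK2 had no call. SOCS1, a feedback inhibitor, changed by -1.36 ± 0.62 and was not called (adjusted p = 0.123).

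Markers of other cell types were read beside these results. Of the 9 leukocyte markers on the array, 4 lay below the floor on every array (PTPRC, CD2, MS4A1 and CSF1R), and so did all 5 dendritic cell markers. CD79A, CD14 and LYZ lay above it on all 9 arrays, with log2 signals of 5.72 to 6.52 for CD79A and 6.16 to 6.91 for CD14, and CD3E on 1 vehicle array. The leukocyte markers summed to 13000 to 13700 linear signal units at 0 µM, 9090 to 10300 at 5 µM and 10800 to 11900 at 10 µM. LYZ, with log2 signals of 13.10 to 13.72 on the 9 arrays, was most of each sum. ITGAM was the only leukocyte marker called, at least 2.7-fold higher at 5 µM than at 0 µM. The fibroblast and endothelial markers summed to 229 to 359 at 0 µM, 789 to 869 at 5 µM and 472 to 663 at 10 µM. COL1A1 accounted for the call in that list, 6.42-fold higher at 5 µM than at 0 µM, and PECAM1, also above the floor on all 9 arrays, was not called (means of 6.14 at 0 µM, 6.77 at 5 µM and 5.90 at 10 µM). Of the other 6, COL3A1, THY1, VWF and CDH5 were below the floor on all arrays, and COL1A2 and DCN were above it on 1 array each. The epithelial markers summed to 85800 to 89000 at 0 µM, 62000 to 70100 at 5 µM and 57100 to 64900 at 10 µM. The part of these markers in the change of the interferon-stimulated genes was not tested.

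Probe sets of the same gene mostly gave like changes at 5 µM against 0 µM. Of 23 members with more than 1 probe set of their own that passed the filter on low signals, 20 had changes at 5 µM against 0 µM within 0.60 of each other, and 1, IRF1, had opposite signs. The widest differences were in OAS2, from 0.79 to 2.27, PLSCR1, from 0.22 to 1.58, and XAF1, from 1.28 to 2.08. In OAS2 and XAF1 the brightest probe set, used above, had the largest change, and in PLSCR1 the smallest.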

How the data were processed

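Total RNA of 9 HT-29 cultures, 3 per concentration, was hybridized to 1 Affymetrix array each, and groups were taken from the labels. The deposited values are log2 signals of 54675 probe sets per array. The submitters' processing notes name RMA and affy 1.14.2, but the values have the form of MAS 5.0 signals, since the linear signals step by 0.1, have the same 2% trimmed mean (250.0) throughout and reach down to -3.32 after the logarithm. The arrays were thus scaled by 1 factor each, and dim signals are noisy. Depth does not apply to arrays, and the number of arrays limits the precision.

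Gene names of the probe sets came from the platform annotation, updated to RefSeq symbols (41095 had 1 gene, 1801 several, 11717 none and 62 were controls), and 6 with a missing value were left out. Each gene took its brightest probe set over all 9 arrays, and was tested when it reached the array median on all 3 arrays of any group. The two-sided test was limma 3.58.1 under R 4.3.3, with lmFit and eBayes over all 9 arrays, after a check on simulated data. Python 3.11.15 and matplotlib 3.10.9 served for summaries and plots. For a gene below the floor on all arrays of a group, each such value was raised to its array's median and the fold is given as a bound. The p-value beside such a bound belongs to the limma fit on signals that were not raised. Array-by-array values are given for the members with the largest and smallest change of each role at 5 µM against 0 µM, those called at 10 µM against 5 µM, and those wholly below the floor in 1 group and above it in another. The members and lists were chosen with earlier results of these data known. Alternatives were other scalings, filters, probe set rules, tests, covariates, a replicate block and the removal of each array. The sequencing data of the same RNA were not used here.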

Additional observations from a re-analysis of the deposited data

How the results depend on the processing

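The call at 5 µM against 0 µM was the most stable: of 31 members called, 19 were called in every alternative, 4 more (DDX60, IFI35, IFITM1 and IFITM3) in every alternative except that without _x_at and _s_at probe sets, where they had no value, and 27 without each array in turn. At 10 µM against 5 µM 0 of 7 and at 10 µM against 0 µM 0 of 21 were called in every alternative, and 3 and 12 without each array. No called member changed sign under an alternative that gave it a value. Without the fold limit, 42 members were called at 5 µM against 0 µM, 41 higher and 1 lower. At 10 µM against 5 µM 17 were called, 16 lower and 1 higher, and at 10 µM against 0 µM 34, all higher. The exception was GBP3 each time. Over all genes 3941, 1864 and 3893 were called in the 3 comparisons. The methods' t-test called 1 member and 114 genes at 10 µM against 5 µM, and 6 members and 437 genes at 10 µM against 0 µM. With no filter on low signals, or with a gene's probe sets averaged, 4 members were called at 10 µM against 5 µM. Equal array medians left 11 at 10 µM against 0 µM, and array weights gave 636 genes at 10 µM against 5 µM. With the actin covariate 663, 12 and 0 genes were called, 0 members at 10 µM against either group, and the members' medians were 1.86, -0.19 and 1.83; this covariate moves with the concentration and the 2 cannot be told apart. Leaving out 1 array at a time gave 3 to 9 members and 156 to 380 genes at 10 µM against 5 µM, and 12 to 22 members at 10 µM against 0 µM. Leaving out vehicle replicate 3 and 10 µM replicate 2 together, an alternative chosen after seeing the data, gave 11 members at 10 µM against 0 µM. With each gene's group mean subtracted, same-numbered arrays of different groups correlated over the tested genes at -0.09 to 0.18. Arrays with different numbers correlated at -0.25 to 0.23. The labels give the same number and state no pairing, and with a replicate block 32, 7 and 21 members were called. Where an alternative ended a call, the cause was not tested. Vehicle signals below the array median limit HERC5 and RTP4, whose vehicle level has only a bound.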
